A study of Mus musculus with 19 samples.

Results

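The 5-hmC marks over imprinted genes were followed in cardiomyocytes (CMCs) from the embryonic heart to the overloaded adult heart. The set holds 42 genes known to be imprinted in mouse, chosen by name and found in the curated RefSeq annotation, of 26180 genes in all. They lie in 17 imprinted domains. For each gene and library, the value is the percent of the gene window (the gene span and 5 kb on each side) covered by 5-hmC peaks. All samples were CMCs of C57BL/6J mice, 2 biological replicates a point: E14.5 embryos, neonatal pups of 1 or 2 days, adults of 2 months, and adults 1 week after transverse aortic constriction (TAC), which overloads the left ventricle. Per the study's methods the animals were males, embryonic and neonatal CMCs came from digested ventricles after non-myocytes had been left to adhere, and adult and TAC CMCs came from perfused left ventricles. Age and mode of isolation therefore changed together and cannot be told apart. The comparison for TAC is the untreated adult, since no sham library was analysed here.

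Imprinted genes are expressed mainly from the copy inherited from either the mother or the father. In each domain, a stretch of DNA that was methylated in only the egg or only the sperm, the germline differentially methylated region (DMR), keeps this difference in somatic cells and sets which copy is used. 5-hmC is made from 5-methylcytosine by TET enzymes and is an intermediate of demethylation as well as a lasting mark of gene bodies. Many imprinted genes act on fetal growth and are turned down in many tissues after birth. Peak lists carry no allele, so a peak may stand for either copy, and a value of 0 says that no peak was called, not that 5-hmC was absent.

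The 8 lists held 104215 to 153637 peaks and covered 2.39% to 4.35% of the genome. The study's main text gives only a lower bound of reads for each condition, so the depth of single libraries was not known here. Replicates overlapped less after TAC than before. In the imprinted windows, 22.2% of the peaks of TAC replicate 1 and 24.7% of those of TAC replicate 2 met a peak of the other replicate, against 38.3% to 55.0% at the other points. Mean cover of 8 CMC marker windows was 17.6% to 22.01% at E14.5, 28.1% to 30.8% in neonates, 12.3% to 17.8% in adults and 9.86% to 13.8% after TAC. For 7 fibroblast markers it was 3.96% to 4.49%, 3.19% to 4.07%, 1.59% to 2.11% and 1.87% to 3.29%, and for 6 endothelial markers 8.59% to 8.85%, 8.07% to 13.4%, 6.40% to 9.37% and 3.97% to 7.12%. The adult libraries lay below both E14.5 libraries for the mean of the fibroblast list, and not throughout for the other lists. Among the fibroblast markers, this held singly for *Col1a1*, *Postn* and *Dcn*. *Col1a1*, the most covered of them, had 20.8% and 16.9% at E14.5 and 6.24% and 7.47% in adults. *Vim* went from 0% in both E14.5 libraries to 2.71% and 3.38% in adults, and the remaining fibroblast markers overlapped. No marker of either non-myocyte list was at 0 in all libraries, and the part of other cell types in the values below was not tested.

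The promoters on which the results turn are shown first, as 300 bases from RefSeq on GRCm38.p6 in the direction of transcription. Capitals mark TGCCGC or its reverse complement GCGGCA, the letters bound by ZFP57, a factor that keeps germline DMRs methylated. *Nnat* is shown because its start held peaks at the late points alone, *Nap1l5* because its start held peaks in 4 scattered libraries, both starts of *Mest* because peaks lay at the first and never at the second, and *Plagl1* because no library had a peak at its start.
Nnat, chr2:157559828-157560127, plus strand: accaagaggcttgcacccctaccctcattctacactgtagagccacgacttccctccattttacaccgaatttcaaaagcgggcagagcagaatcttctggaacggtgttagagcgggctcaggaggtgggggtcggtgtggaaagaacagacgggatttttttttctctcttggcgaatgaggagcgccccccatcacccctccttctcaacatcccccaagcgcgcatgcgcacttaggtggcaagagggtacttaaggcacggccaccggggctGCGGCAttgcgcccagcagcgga
Nap1l5, chr6:58907077-58907376, minus strand: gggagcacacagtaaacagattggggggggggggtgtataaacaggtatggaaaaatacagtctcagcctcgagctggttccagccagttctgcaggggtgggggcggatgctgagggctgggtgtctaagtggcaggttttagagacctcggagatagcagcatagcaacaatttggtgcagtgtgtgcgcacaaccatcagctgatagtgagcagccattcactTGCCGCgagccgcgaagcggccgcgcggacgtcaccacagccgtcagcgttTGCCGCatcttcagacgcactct
Mest, upstream start, chr6:30733256-30733555, plus strand: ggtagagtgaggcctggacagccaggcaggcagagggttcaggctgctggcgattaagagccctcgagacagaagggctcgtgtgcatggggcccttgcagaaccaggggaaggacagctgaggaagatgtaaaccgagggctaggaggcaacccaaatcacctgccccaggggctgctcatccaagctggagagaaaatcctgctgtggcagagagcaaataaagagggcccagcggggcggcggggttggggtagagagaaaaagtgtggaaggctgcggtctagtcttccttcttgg
Mest, downstream start, chr6:30737800-30738099, plus strand: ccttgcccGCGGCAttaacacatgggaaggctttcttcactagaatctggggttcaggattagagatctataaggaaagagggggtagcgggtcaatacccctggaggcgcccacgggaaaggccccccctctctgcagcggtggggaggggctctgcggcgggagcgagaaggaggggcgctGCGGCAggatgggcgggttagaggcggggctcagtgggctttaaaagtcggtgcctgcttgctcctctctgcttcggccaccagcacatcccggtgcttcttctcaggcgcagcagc
Plagl1, chr10:13090582-13090881, plus strand: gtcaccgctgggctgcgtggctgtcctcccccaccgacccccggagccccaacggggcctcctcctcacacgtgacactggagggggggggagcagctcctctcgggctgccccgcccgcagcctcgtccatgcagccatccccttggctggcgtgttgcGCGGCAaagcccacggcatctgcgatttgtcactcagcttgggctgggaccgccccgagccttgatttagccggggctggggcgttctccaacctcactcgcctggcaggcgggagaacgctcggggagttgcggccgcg

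The motif was searched on both strands. It stood in 11.6% of 32851 promoters of the same length, in 13 of 48 promoters of the imprinted genes, and in 7 of 15 promoters of the genes listed for a germline DMR at their start. Some genes gave several promoters, and the downstream promoters of *Mest*, nearly the same stretch, were counted separately. Around peak centres the motif stood in 3.87% of all 300-base stretches. No share was computed for like stretches away from peaks, so whether peaks held it more or less often was not tested. Of the 42 genes, 34 had a sequence in the table. *Impact*, *Sgce*, *Trappc9*, *Kcnk9*, *Peg10*, *Cdkn1c*, *Peg13* and *H19* had none.

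By the median, imprinted windows were covered more than the typical gene window. Over the mean of the 8 libraries, the median member was covered by 5.68% and the median gene by 3.66%. The mean over all gene windows was 5.23% and 4.97% at E14.5, 5.90% and 7.16% in neonates, 5.64% and 7.55% in adults, and 5.58% and 3.78% after TAC. The union of the imprinted windows, 2872 kb, was covered by 5.60% and 6.27% at E14.5, 6.10% and 7.28% in neonates, 4.20% and 5.57% in adults, and 4.14% and 3.34% after TAC. The cover of the union lay above the mean of all genes at E14.5 and in neonates, and below it in adults and after TAC. These measures are unlike, since long windows weigh more in the union and all windows weigh alike in the mean. The median member still lay above the median gene at the late points. In adults it was 4.22% and 5.12% against 2.95% and 3.84%, and after TAC 4.12% and 3.87% against 3.01% and 2.71%. For the union, all 4 libraries of E14.5 and neonatal CMCs lay above all 4 libraries of adult and TAC CMCs. Against the genome-wide coverage of the same library, which includes DNA between genes, this was 1.71 and 1.79 times at E14.5, 1.70 and 1.67 times in neonates, 1.502 and 1.56 times in adults, and 1.503 and 1.40 times after TAC, and the order held. Without *Peg3* and *Usp29* the percent covered was 5.46% and 5.84% at E14.5 and 4.48% and 5.96% in adults. Adult replicate 2 then lay above both E14.5 libraries, so the order rested in part on these genes.

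**Figure D1:**
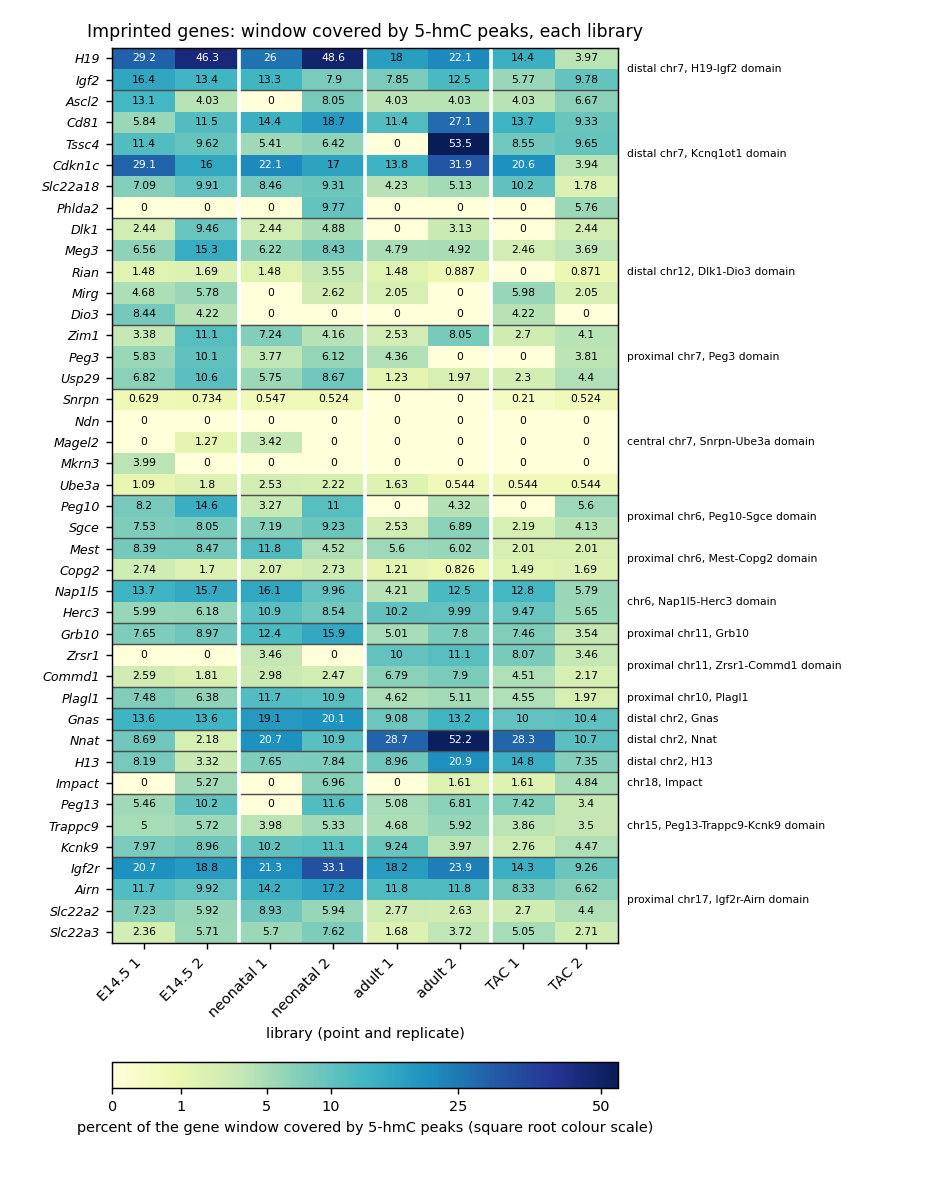
Percent of each imprinted gene's window covered by 5-hmC peaks (numbers and colours) in the 8 libraries (columns), with genes in rows grouped by imprinted domain; the colour follows the square root of the percent. H19, Nnat, Igf2r and Cdkn1c held the densest mean cover, and the Snrpn-Ube3a domain was nearly bare, with Ndn at 0 in all libraries.

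Of the 42 genes, 40 had cover in at least 2 libraries and entered the test among 22422 genes. *Ndn* had no peak in any library and *Mkrn3* had a peak in E14.5 replicate 1 alone. No member passed the moderated F test of limma over the 4 points at an adjusted p of 0.05, nor did any other gene (0%). The lowest adjusted p of a member was 0.271, for *Zrsr1*, and over the alternatives that of *Zrsr1* ranged from 0.197 to 0.58. The lowest adjusted p of any member under an alternative was 0.0986, for *Snrpn*, which reached 0.93 under another. At an unadjusted p under 0.05 stood 7 of 40 members (17.5%), against 12.5% of all genes. These were *Zrsr1*, *Plagl1*, *Usp29*, *Dio3*, *Gnas*, *H19* and *Nnat*. By an exact permutation test over the 105 divisions of the libraries into pairs, 4 members stood under 0.05, against 7.45% of all genes, and the smallest adjusted p was 0.58.

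The replicates show the direction of the differences. From E14.5 to the adult, 17 of 40 members were lower without overlap of the replicates (42.5%), against 19.8% of all genes, and 6 were higher (15%), against 27.3%. The median difference of the members was −1.87 percentage points, whereas that of all genes was 0.155. Relative to each library's genome coverage, 18 members were lower, against 20% of all genes, and 8 higher, against 31.1%. In lists of equal length, 9 members were lower, against 14% of all genes, and 9 higher, against 32.2%, so that lower members no longer outnumbered higher ones. The members' median difference stayed below 0 under both. Windows of some members overlap, so these counts are not of independent genes.

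From E14.5 to the neonatal point, 10 of 40 members were higher without overlap (25%), against 25.1% of all genes, and 5 were lower (12.5%), against 7.3%. From the neonatal to the adult point, 4 were higher (10%), against 15.2%, and 15 were lower (37.5%), against 22.9%. With lists of equal length the last step held 8 higher members, against 24.4% of all genes, and 9 lower, against 13.3%. The median difference was then 0 percentage points for the members and 0.480 for all genes. From adult to TAC, 3 members were higher (7.5%), against 6.55%, and 12 were lower (30%), against 23%. Relative to genome coverage, 7 members were higher, against 13.2% of all genes, and 7 lower, against 16.2%. With TAC replicate 1 alone, 9 members lay above both adult libraries, against 20.2% of all genes, and 15 lay below both, against 31%.

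Cover in adults against E14.5 was set out by the parental copy that is generally held to be expressed. Windows of the 19 paternally expressed members together were covered by 4.93% and 5.75% at E14.5, 4.99% and 5.92% in neonates, 2.71% and 3.68% in adults, and 2.58% and 2.90% after TAC. Those of the 21 maternally expressed members were covered by 6.07% and 6.69%, 6.45% and 8.395%, 5.20% and 7.03%, and 5.04% and 3.54%. Adult replicates lay below E14.5 without overlap in 10 of 17 tested paternal members and in 6 of 21 maternal members, against 19.8% of all genes. *Usp29* has the longest of the paternal windows of the *Peg3* domain. Without *Peg3* and *Usp29*, the paternal windows were covered by 4.36% and 4.43% at E14.5 and by 3.06% and 4.22% in the adult. The difference between the parental groups was not tested, and which copy each gene uses in CMCs was not examined here.

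**Figure D2:**
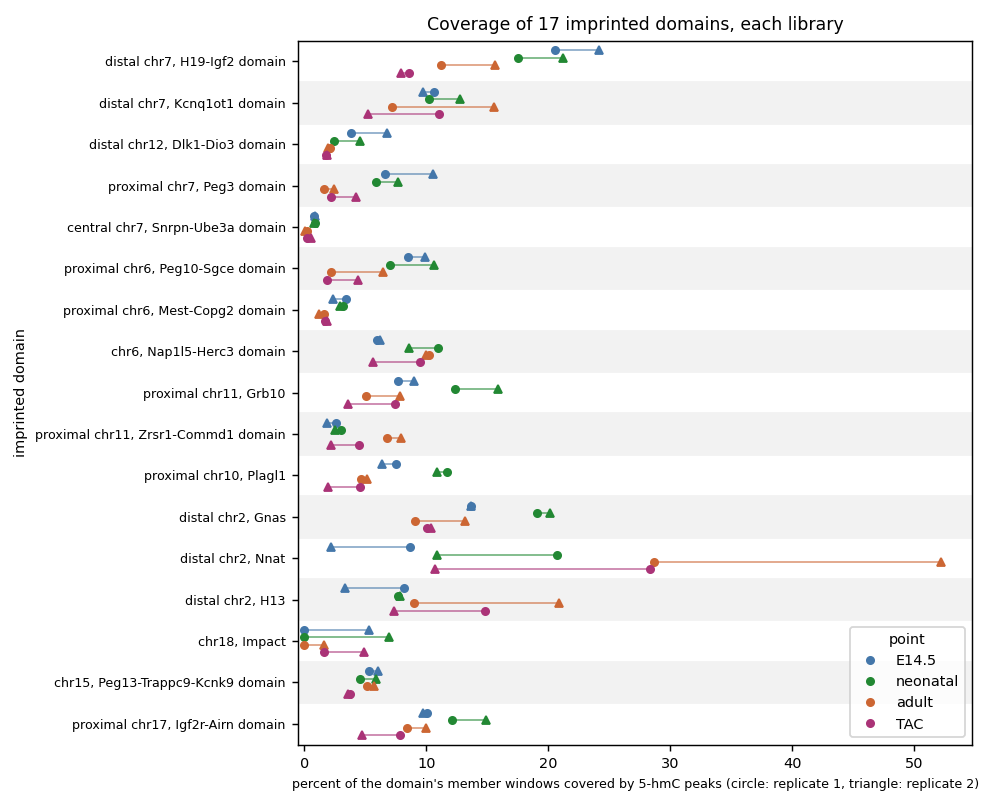
Percent of the member windows of each of the 17 imprinted domains (rows) covered by 5-hmC peaks, with circles for replicate 1, triangles for replicate 2 and colours for the 4 points. The H19-Igf2, Dlk1-Dio3, Peg3, Snrpn-Ube3a, Peg10-Sgce, Mest-Copg2, Plagl1 and Gnas domains lay lower in both adult libraries than in all E14.5 and neonatal libraries, and the Nnat, H13 and Zrsr1-Commd1 domains lay higher.

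The growth factor *Igf2*, its receptor and the non-coding RNAs beside them were among the most densely covered. *H19* (chr7:142575530-142578146) is a maternally expressed non-coding RNA that shares enhancers with *Igf2*. Its window was covered by 29.2% and 46.3% at E14.5, 26.0% and 48.6% in neonates, 18.02% and 22.1% in adults, and 14.4% and 3.97% after TAC. All embryonic and neonatal values lay above both adult values, and both TAC values lay below them. The means were 37.8% ± 12.1, 37.3% ± 16.0, 20.04% ± 2.86 and 9.17% ± 7.36 (SD, n = 2), with an adjusted p of 0.386 by limma. *Igf2* itself lay between 5.77% and 16.4%, and both adult libraries lay below both E14.5 libraries.

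Most peaks of the *H19* window lay over the gene or downstream of it. A stretch of the *H19* exon, chr7:142576844-142577143 on the plus strand of mm10, lay in peaks of 6 libraries and is shown with its CpGs in capitals.
H19 exon: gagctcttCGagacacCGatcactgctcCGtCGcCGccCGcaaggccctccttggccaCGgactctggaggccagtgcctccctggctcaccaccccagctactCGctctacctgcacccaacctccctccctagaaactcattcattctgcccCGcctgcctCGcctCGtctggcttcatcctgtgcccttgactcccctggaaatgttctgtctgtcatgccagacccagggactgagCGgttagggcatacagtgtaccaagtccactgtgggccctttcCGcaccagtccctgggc
The stretch from 1 to 6 kb upstream of the *H19* start (chr7:142579147-142584146), where the control region lies, was covered by 20.8% in E14.5 replicate 2, 19.6% in neonatal replicate 2 and 10.02% in TAC replicate 2, and by 0% in the other 5 libraries. On both strands it was searched for the CTCF motif of this region, whose free letters are those at which the lines shown differ. The 4 matches, which do not overlap, lay on the minus strand, 2163, 2618, 3644 and 3888 bases upstream.
H19 upstream, match at 2163 bases: CCGCGTGGTGGCAG
H19 upstream, match at 2618 bases: CCGCGCGGTGGCAG
H19 upstream, match at 3644 bases: CCGCACGGCGGCAG
H19 upstream, match at 3888 bases: CCGCGTGGTGGCAG
The first lay in a peak of TAC replicate 2, and the other 3 lay in no peak of any library. Of 26180 genes, 0.195% had a match in the same stretch before their start and 2 genes had at least 4. No match under a peak says nothing about 5-hmC below the level a peak needs.

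*Igf2r* (chr17:12682406-12769706), the receptor that clears *Igf2* and is expressed from the mother's copy, held 15 to 26 peak centres a library. Its window was covered by 20.7% and 18.8% at E14.5, 21.3% and 33.1% in neonates, 18.2% and 23.9% in adults, and 14.3% and 9.26% after TAC. Both TAC values were the lowest of the 8, and the adult values overlapped those of E14.5. Without adult replicate 2 the difference from E14.5 to adult turned from 1.32 to −1.52 percentage points. *Airn* (chr17:12741311-12859884), the paternal non-coding RNA that silences *Igf2r* and runs through it in antisense, was covered by 11.7% and 9.92% at E14.5, 14.2% and 17.2% in neonates, 11.8% and 11.8% in adults, and 8.33% and 6.62% after TAC. The windows share 38.4 kb. In the part of the *Igf2r* window outside *Airn*, the TAC libraries held 16.2% and 4.25% and the adult libraries 17.4% and 23.1%, so the lower TAC cover there rested mainly on TAC replicate 2. Of the neighbouring cation transporters, *Slc22a2* lay between 2.63% and 8.93% and was lower in both adult libraries than in all 4 earlier ones, whereas *Slc22a3* lay between 1.68% and 7.62%.

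The domain held 2 recurrent regions rich in CpG, shown on the plus strand of mm10 with CpGs in capitals. The first is the stretch at the *Igf2r* start that lay in peaks of all 8 libraries, chr17:12769682-12769833, with 21 CpGs in 152 bases. The second, chr17:12741773-12742072, with 27 CpGs, lies within *Airn* just past its start and in an intron of *Igf2r*, where the germline DMR of the domain is. It lay in peaks of 6 libraries and holds TGCCGC or its reverse complement.
Igf2r start: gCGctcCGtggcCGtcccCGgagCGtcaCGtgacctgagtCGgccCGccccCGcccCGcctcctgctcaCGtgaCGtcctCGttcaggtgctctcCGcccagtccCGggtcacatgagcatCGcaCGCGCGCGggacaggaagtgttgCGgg
Airn, past its start: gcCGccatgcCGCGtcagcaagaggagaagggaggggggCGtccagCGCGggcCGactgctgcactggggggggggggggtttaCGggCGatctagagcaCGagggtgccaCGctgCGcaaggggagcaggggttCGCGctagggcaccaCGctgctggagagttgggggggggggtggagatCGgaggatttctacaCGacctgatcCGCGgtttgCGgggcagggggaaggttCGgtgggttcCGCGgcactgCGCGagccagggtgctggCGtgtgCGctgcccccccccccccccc
At the *Igf2r* start, 2 kb were covered by 35.0% and 37.8% at E14.5, 83.6% and 88.0% in neonates, 80.8% and 57.2% in adults, and 56.9% and 43.8% after TAC. The E14.5 values were the lowest. At the *Airn* start the cover was 51.3% and 54.5%, 0% and 53.8%, 0% and 37.2%, and 43.1% and 25.04%, so that the replicates of neonatal and adult CMCs disagreed.

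Genes that act on growth differed in course. *Grb10* (chr11:11930499-12037420) codes for an adaptor that dampens insulin and IGF signalling. It was covered by 7.655% and 8.97% at E14.5, 12.4% and 15.9% in neonates, 5.01% and 7.80% in adults, and 7.46% and 3.54% after TAC. The neonatal values were the highest, without overlap. *Plagl1* (chr10:13090832-13131694), a zinc-finger factor of fetal growth, was likewise highest in neonates, with 7.48% and 6.38%, 11.7% and 10.9%, 4.62% and 5.11%, and 4.55% and 1.97%. Its means were 6.93% ± 0.776, 11.3% ± 0.587, 4.87% ± 0.346 and 3.26% ± 1.83 (SD, n = 2), with an adjusted p of 0.346 by limma. In lists of equal length the adult minus E14.5 difference of *Plagl1* turned from −2.06 to 0.116 percentage points. *Cdkn1c* (chr7:143458339-143461050), an inhibitor of cyclin-dependent kinases, was covered by 29.1% and 16.0%, 22.1% and 16.98%, 13.8% and 31.9%, and 20.6% and 3.94%. At E14.5, in adults and after TAC its replicates lay further apart than the 4 point means did. *Phlda2*, which limits placental growth, had peaks in neonatal replicate 2 (9.77%) and TAC replicate 2 (5.76%) alone.

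In the rest of the *Kcnq1ot1* domain, adult replicate 2 decided the values of *Tssc4* and *Cd81*. *Tssc4* (chr7:143069368-143071087) was covered by 11.4% and 9.62% at E14.5, 5.41% and 6.42% in neonates, 0% and 53.5% in adults, and 8.55% and 9.65% after TAC. *Cd81* (chr7:143052750-143067930), a tetraspanin whose window shares 8.56 kb with that of *Tssc4*, was covered by 5.84% and 11.5%, 14.4% and 18.7%, 11.4% and 27.1%, and 13.7% and 9.33%. Without adult replicate 2 the difference of *Tssc4* from E14.5 to adult turned from 16.2 to −10.5 percentage points, and that of *Cd81* went from 10.6 to 2.76. *Slc22a18*, a transporter, lay between 1.78% and 10.2%, and *Ascl2*, a factor of the placental lineage, between 0% and 13.1%.

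*Nnat* (chr2:157560078-157562525), a paternally expressed gene for a small membrane protein of the endoplasmic reticulum, lies within *Blcap* and had the widest range of the set. Its window was covered by 8.69% and 2.18% at E14.5, 20.7% and 10.9% in neonates, 28.7% and 52.2% in adults, and 28.3% and 10.7% after TAC. The adult values lay above all others, the neonatal above those of E14.5. The means were 5.43% ± 4.61, 15.8% ± 6.91, 40.4% ± 16.6 and 19.5% ± 12.5 (SD, n = 2), with an adjusted p of 0.386 by limma. Without adult replicate 2 the adult lay 23.2 percentage points above E14.5, in place of 35.0. The window is short, at 12.4 kb, and held few peak centres. They numbered 2 and 0 at E14.5, 3 and 1 in neonates, 3 and 1 in adults, and 3 and 2 after TAC. The adult counts equalled the neonatal ones, so the higher cover in adults than in neonates was not one of more peaks. Against E14.5, the adult counts were 3 and 1 in place of 2 and 0.

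At the *Nnat* start, peaks were either present or absent. The 300 bases shown above were covered by 0% in all 4 E14.5 and neonatal libraries, by 100% in both adult libraries, and by 82.7% and 87.3% in the TAC libraries. *Nnat* was the 1 gene of the 42 with a peak at its start in all 4 adult and TAC libraries and in none of the 4 earlier ones, a pattern that 0.183% of all genes showed. The pattern is that of *Nnat* itself, so this share is a description and not a test. In the neonatal libraries the peaks of the window lay further upstream, in the gene or downstream of it.

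**Figure D3:**
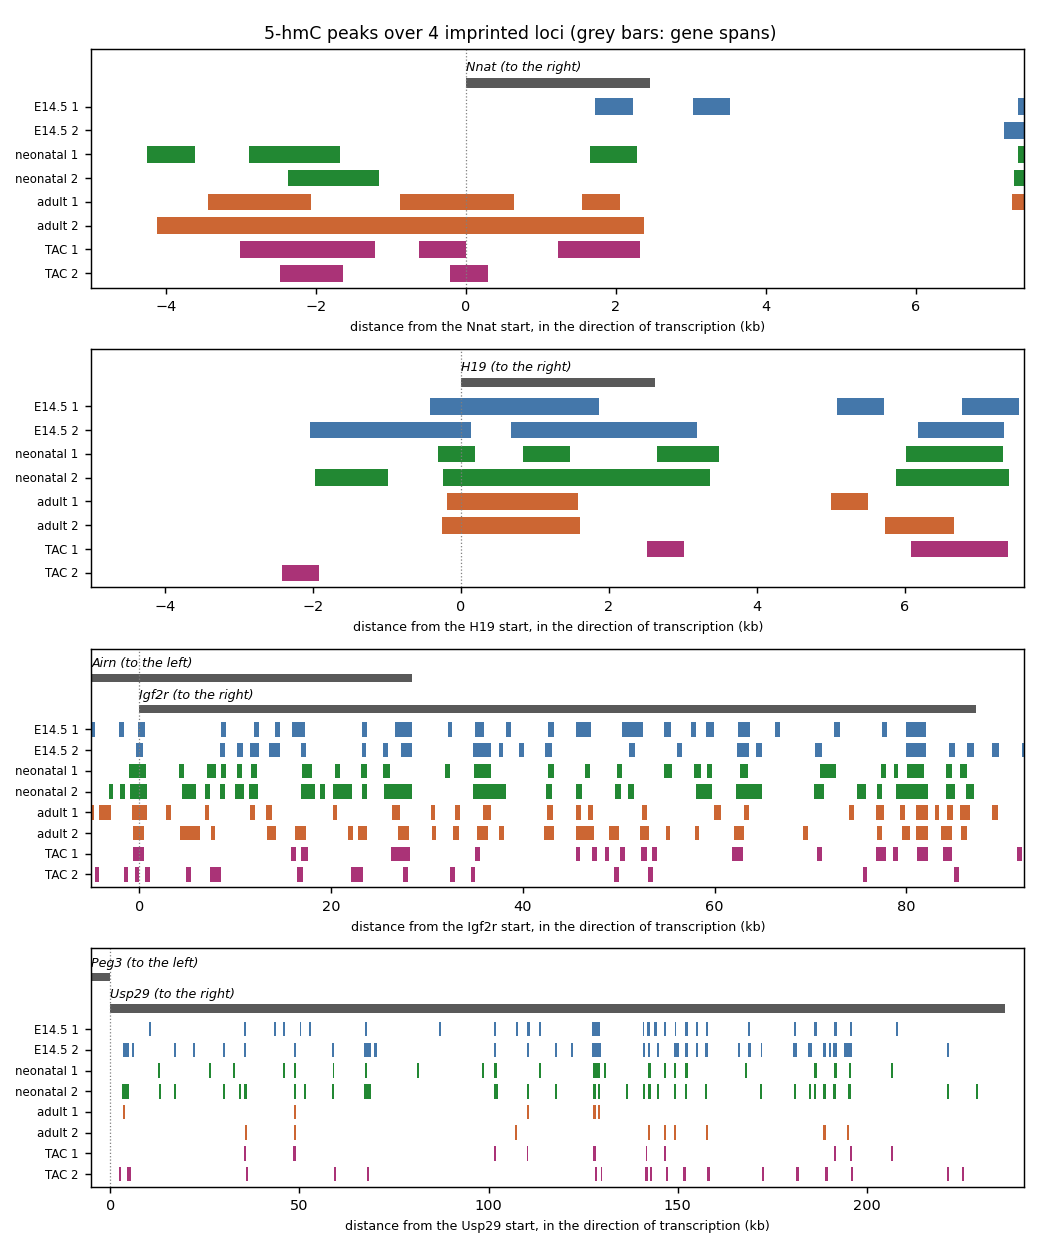
5-hmC peaks (bars, a row for each library, coloured by point) over the windows of Nnat, H19, Igf2r and Usp29, with distance from the gene start in kb in the direction of transcription and gene spans in grey. Peaks lay within 1 kb of the Nnat start in adult and TAC libraries only, those of H19 lay largely on the gene and downstream, with none over its start after TAC, and those of Usp29 thinned from E14.5 and neonatal to adult libraries.

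Higher cover in adults was also seen on chromosome 11. *Zrsr1* (chr11:22972005-22976496) is a paternally expressed retrogene of a splicing factor, within an intron of the maternally expressed *Commd1*. Its window was covered by 0% and 0% at E14.5, 3.46% and 0% in neonates, 10.04% and 11.1% in adults, and 8.07% and 3.46% after TAC. The adult values were the highest and both exceeded TAC. In *Commd1* (chr11:22899728-22982284), which acts in copper handling, the cover was 2.59% and 1.81%, 2.98% and 2.47%, 6.79% and 7.90%, and 4.51% and 2.17%. *Commd1* was described for the window it shares with *Zrsr1*, after its values had been seen. The higher adult cover was not in the shared stretch alone, for the rest of the *Commd1* window was covered by 3.07% and 2.15% at E14.5 and by 6.18% and 7.31% in the adult.

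*H13* (chr2:152669461-152708668), the signal peptide peptidase gene, was covered by 8.19% and 3.32% at E14.5, 7.645% and 7.84% in neonates, 8.96% and 20.9% in adults, and 14.8% and 7.35% after TAC. The adult lay above the neonatal libraries by 1.21 percentage points without adult replicate 2 and by 7.19 with it. *Gnas* (chr2:174284320-174346744), which codes for the stimulatory G protein subunit of adrenergic signalling and has imprinted starts of both kinds, was covered by 13.6% and 13.6% at E14.5, 19.1% and 20.1% in neonates, 9.08% and 13.2% in adults, and 10.04% and 10.4% after TAC. Both neonatal values stood above all others. In lists of equal length the adult minus E14.5 difference of *Gnas* turned from −2.51 to 0.229 percentage points.

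**Figure D4:**
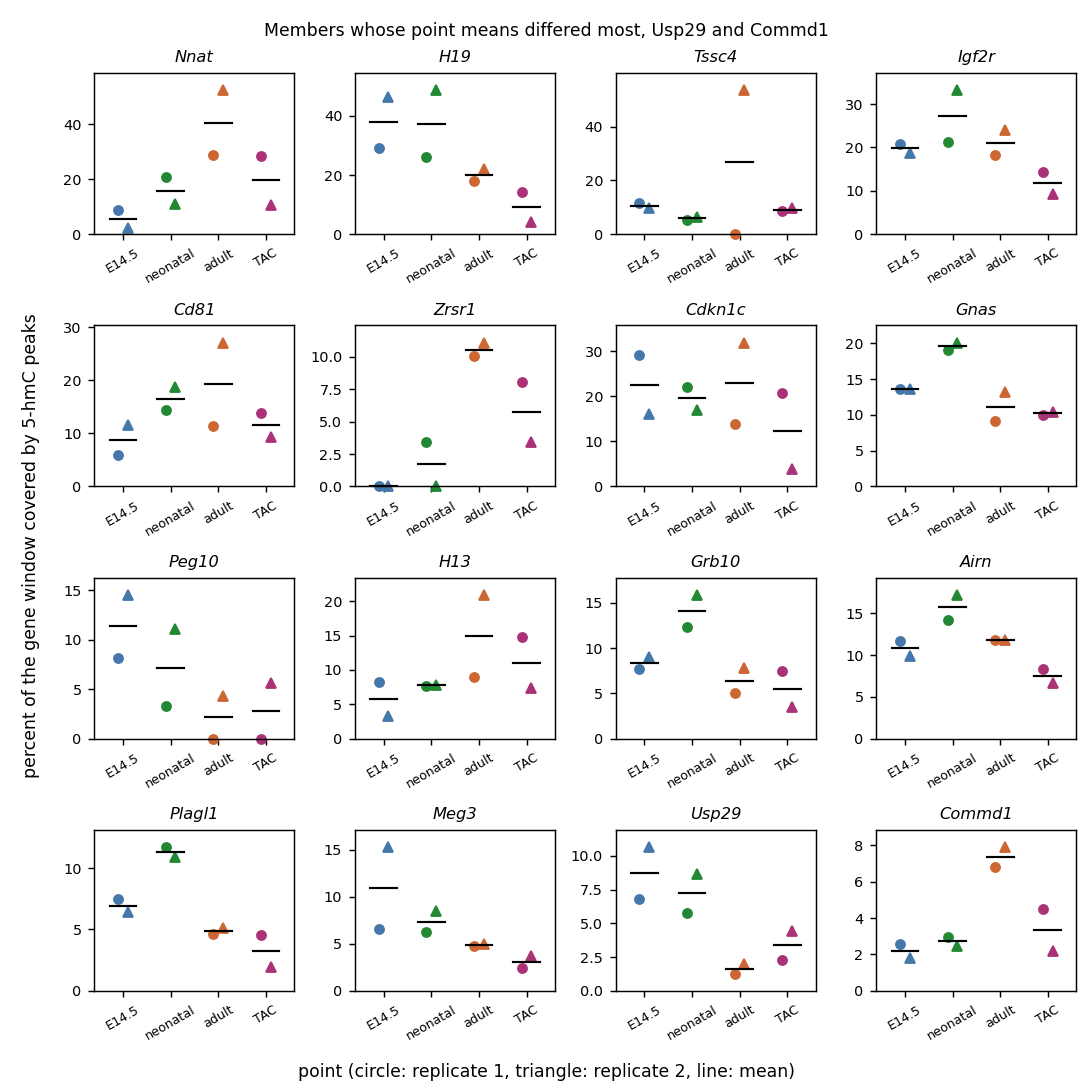
Percent of the gene window covered by 5-hmC peaks at the 4 points in the 14 members whose point means differed most, and in Usp29 and Commd1; circles are replicate 1, triangles replicate 2, and lines the mean of both. Nnat, Zrsr1 and Commd1 were highest in both adult libraries, Grb10, Airn, Plagl1 and Gnas in both neonatal libraries, and in Tssc4 the adult replicates lay at 0% and 53.5%.

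The *Peg3* domain held fewer peaks in adults. *Usp29* (chr7:6730583-6967219), a ubiquitin-specific protease gene expressed from the father's copy, stood next in the range of point means and was singled out after its values had been seen. Its window was covered by 6.82% and 10.6% at E14.5, 5.75% and 8.67% in neonates, 1.23% and 1.97% in adults, and 2.30% and 4.40% after TAC. Both adult libraries lay below the other 6. Peaks were fewer along the gene, with 27 and 32 peak centres at E14.5, 22 and 31 in neonates, 5 and 9 in adults, and 10 and 18 after TAC. The adult minus E14.5 difference was −7.14 percentage points, and −9.05 to −5.00 under the alternatives. The adjusted p was 0.354 by limma. *Peg3*, a zinc-finger gene, lay between 0% and 10.1%, and *Zim1* beside it between 2.53% and 11.1%.

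In the *Dlk1-Dio3* domain the cover was thin. *Meg3* (chr12:109540996-109571729), a maternally expressed non-coding RNA, was covered by 6.56% and 15.3% at E14.5, 6.22% and 8.43% in neonates, 4.79% and 4.92% in adults, and 2.46% and 3.69% after TAC. Each adult value lay below all earlier ones and above both TAC values. In lists of equal length the adult minus neonatal difference of *Meg3* turned from −2.46 to 0.987 percentage points. *Dio3*, the deiodinase that inactivates thyroid hormone, had peaks in both E14.5 libraries (8.44% and 4.22%) and in TAC replicate 1 (4.22%), and none in neonatal or adult libraries. *Dlk1*, a ligand related to those of Notch, lay between 0% and 9.46%. The non-coding *Rian* lay between 0% and 3.55% and *Mirg* between 0% and 5.98%.

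The *Snrpn-Ube3a* domain was almost free of peaks. *Snrpn*, for a spliceosome protein, was covered by 0.524% to 0.734% in the 4 E14.5 and neonatal libraries, by 0% in both adult libraries, and by 0.21% and 0.524% in the TAC libraries. *Ube3a*, a ubiquitin ligase, lay between 0.544% and 2.53%. *Magel2* had peaks in E14.5 replicate 2 (1.27%) and neonatal replicate 1 (3.42%), *Mkrn3* in E14.5 replicate 1 (3.99%), and *Ndn* in none.

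On chromosome 6, *Peg10* (chr6:4747306-4760517), a gene derived from a retrotransposon, was covered by 8.20% and 14.6% at E14.5, 3.27% and 11.05% in neonates, 0% and 4.32% in adults, and 0% and 5.60% after TAC. Both adult values lay below both E14.5 values. *Sgce*, the epsilon-sarcoglycan gene that starts beside it, lay between 2.19% and 9.23%, also lower in the adult. *Mest*, which codes for a protein of the hydrolase family, lay between 2.01% and 11.8%, with both TAC libraries at 2.01%. *Copg2*, a coatomer subunit gene, lay between 0.826% and 2.74%. *Nap1l5*, a retrogene within *Herc3*, lay between 4.21% and 16.1%, and *Herc3*, a ubiquitin ligase gene, between 5.65% and 10.9%, where both adult libraries exceeded both E14.5 libraries. On chromosome 15, *Peg13* lay between 0% and 11.6%, *Trappc9*, which contains it, between 3.495% and 5.92%, and the potassium channel gene *Kcnk9* between 2.76% and 11.1%. *Impact*, a regulator of translation, lay between 0% and 6.96%.

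Transcription starts of imprinted genes carried peaks more often than those of other genes. A start of 10, 10, 11 and 6 of the 42 genes had a peak within 1 kb in both replicates at E14.5, in neonatal, adult and TAC CMCs, or 23.8%, 23.8%, 26.2% and 14.3%, against 11.4%, 13.4%, 11.6% and 7.403% of all genes. Several members have more than 1 start, and the difference from all genes was not tested. *Igf2r*, *Mest* and *Gnas* had a peak in all 8 libraries. *H19* had peaks at its start in the 6 E14.5, neonatal and adult libraries, covering 33.3% to 72.8% of the 2 kb, and in neither TAC library. At the *Slc22a2* start, peaks were present in both E14.5 libraries and neonatal replicate 1 and in none of the later ones.

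Of the 13 genes listed for a germline DMR at their start, 3, 2, 3 and 4 had a peak at a start in both replicates at the 4 points. These were 23.1%, 15.4%, 23.1% and 30.8%, against 11.4%, 13.4%, 11.6% and 7.403% of all genes. A peak within 1 kb of any annotated start was counted, so it need not lie in the DMR. *Mest* had its peaks at the upstream start, with 54.5% and 64.4% of the 2 kb covered at E14.5, 73.1% and 31.3% in neonates, 44.8% and 4.90% in adults, and 25.04% and 25.04% after TAC. No library had a peak at the downstream starts of *Mest*, which hold the motif and 17 CpGs in the 300 bases shown. *Grb10* had peaks at its downstream start in 7 libraries and none at its upstream start. *Nap1l5* was covered by 25.04% in neonatal replicate 1, 74.6% in adult replicate 2, and 37.1% and 31.8% in the TAC libraries. *Zrsr1* had a peak at its start in TAC replicate 1 alone (25.04%), *Snrpn* in E14.5 replicate 2 alone (18.1%), and *Peg10* and *Sgce*, whose starts lie side by side, in adult replicate 2 alone (25.04%). *Peg3*, *Plagl1*, *Impact* and *Peg13* had none in any library.

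**Figure D5:**
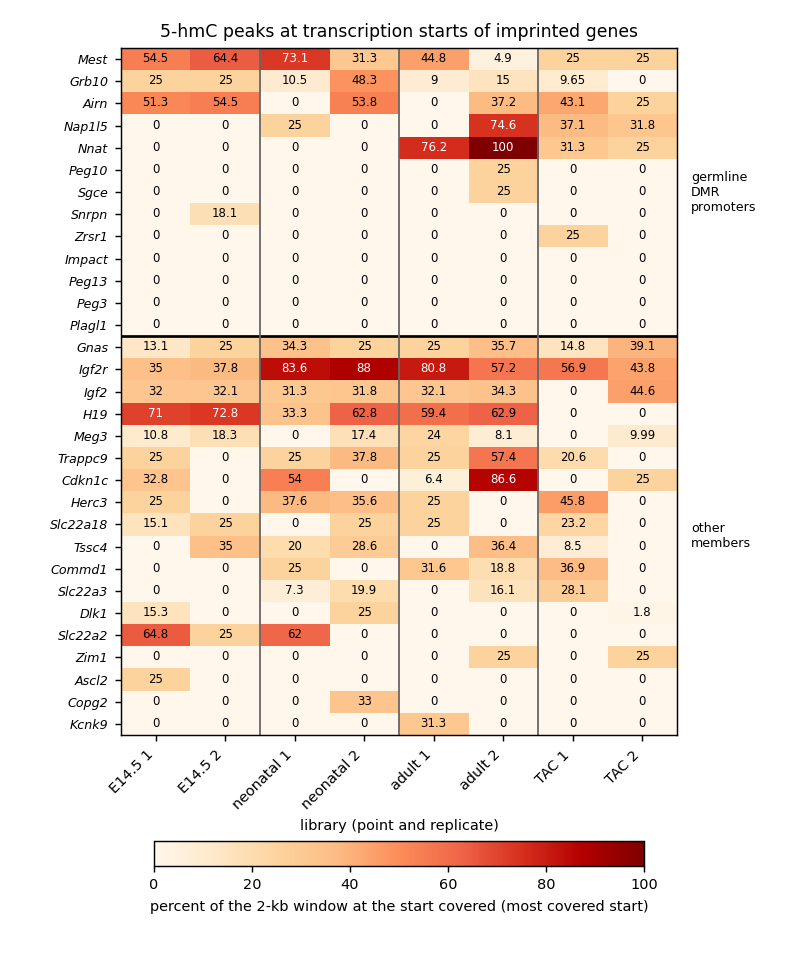
Percent of the 2-kb window at the start covered by 5-hmC peaks (numbers and colours; the most covered start of each gene) in the 8 libraries (columns), for the 13 genes with a germline DMR at their start and the other imprinted genes with a peak in at least 1 library (rows). Nnat was at 0 in the 4 early libraries and at 76.2% and 100% in the adult, and H19 was at 0 in both TAC libraries.

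In all, 1637 peaks met the imprinted windows, with centres 78.7% in introns, 11.9% in exons and 9.41% between genes. They merged into 588 regions, of which 61 (10.4%) were met by 6 or more libraries, against 8.24% of all regions of the genome. Just 7 had a stretch in peaks of all 8 libraries, in *Grb10*, *Slc22a2*, *Igf2r*, *Gnas* (2 regions), *Sgce* and beside *Igf2*. These were unlike in sequence. The stretch at the *Igf2r* start held 21 CpGs, whereas those in *Slc22a2* and *Grb10* held 0 and that in *Sgce*, made largely of TG repeats, held 2.
Slc22a2 intron, chr17:12598216-12598260, plus strand: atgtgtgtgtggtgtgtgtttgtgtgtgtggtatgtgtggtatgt
Runs of at least 4 CA or TG units made up 0.833% of the imprinted windows and 1.38% to 3.41% of the peaks in them, with the highest share in replicate 2 of E14.5. Over all peaks, replicate 2 exceeded replicate 1 at E14.5 (3.76% and 1.30%), in neonatal (2.92% and 1.24%) and in adult CMCs (2.44% and 1.118%), and the part of such repeats in the values above was not tested.

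Peaks in imprinted windows were also richer in CpG than the windows. They held 1.30 to 2.0 CpGs per 100 bases in the 8 libraries, the windows 1.02 and the genome 0.826. Across the 42 genes, the CpG density of the window and its mean cover had a Spearman rho of 0.416, against 0.636 across all 26180 genes. The genes share libraries and, in part, windows, so this is a description.

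Other imprinted genes, listed by name, gave 36 tested genes of 40 listed, of which 0 passed the F test of limma at an adjusted p of 0.05 and 3 stood at an unadjusted p under 0.05, against 12.5% of all genes. *Blcap*, the host of *Nnat*, had the widest range, at 10.02% and 13.04% at E14.5, 24.6% and 18.5% in neonates, 26.1% and 35.0% in adults, and 17.6% and 6.66% after TAC. Its window overlaps that of *Nnat*, and its adult values lay above all others. *Cpa4*, a carboxypeptidase gene of the *Mest* domain, was covered by 16.9% and 14.1%, 11.8% and 19.9%, 7.21% and 9.96%, and 1.47% and 1.47%, with an adjusted p of 0.167 by limma. Both its TAC values lay below the adult and these below all earlier ones. *Ampd3*, an AMP deaminase gene, was covered by 6.39% and 8.05%, 8.07% and 12.1%, 16.1% and 24.04%, and 14.8% and 10.4%, with an adjusted p of 0.395 by limma. *Tspan32*, a tetraspanin gene, was covered by 16.5% and 13.98%, 17.5% and 25.4%, 4.63% and 14.47%, and 2.59% and 15.0%, with replicates of adult and TAC far apart.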

How the data were processed

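5-hmC was profiled by hMeDIP-seq in CMCs of 4 points with 2 biological replicates each. The authors aligned reads to mm10 with BWA 0.7.4-r385, filtered them with the duplicate marking of Picard, removed reads of mapping quality under 10 with bamtools, and called peaks against input for each replicate with HOMER findPeaks in histone mode. The deposited peak lists give coordinates and a score that is 1 in all lines, so a peak has no height, and the number of reads of each library is not given in the sources used here. Input and knockdown control libraries were not analysed here.

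Overlapping peaks of a library were merged, and the percent of each gene window (curated RefSeq span on GRCm38.p6 and 5 kb on each side) under them was computed with Python 3.11.15, numpy 2.4.6 and scipy 1.17.1, with interval sums checked against bedtools 2.31.1 and figures drawn with matplotlib 3.10.9. The arcsine of the square root of the fraction was tested over the 4 points with limma 3.58.1 in R 4.3.3, on genes covered in at least 2 libraries, with Benjamini-Hochberg adjustment over all genes at 0.05. The method was tested on simulated data. Groups came from the labels. The 14 members described in full were those with the widest range of point means among the 42, and 2 were added after their values had been seen. The members and lists were chosen with earlier results of these data known. The main fit did not pair the samples by replicate number. Correlations of same-numbered deviations ran from −0.0586 to 0.236, the highest between E14.5 and neonatal. They do not show whether same-numbered replicates shared a batch, which was not tested.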

Additional observations from a re-analysis of the deposited data

How the results depend on the processing

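With 2 libraries a point and no read number for each, small differences could not be told from calling error, and a window without a peak is not a window without 5-hmC. No member passed the adjusted test of limma under any alternative, and a replicate block gave 0 members too. GENCODE spans, a prior variance that follows window length and a fit without TAC, chosen after seeing the data, were among these alternatives. Over the 4 points, other genes passed without flanks (266 of 18812), by peak centres (294 of 22319) and with no filter (397 of 26180). Relative to genome coverage, 10 members were lower in neonates than at E14.5 (16.3% of all genes), and TAC against adult held 7 higher (13.2%) and 7 lower (16.2%). In lists of equal length, adult against neonatal held 8 higher (24.4% of all genes) and 9 lower members (13.3%), and adult against E14.5 held 9 higher (32.2%) and 9 lower (14%). Without flanks, 11 of 37 members were lower in the adult than at E14.5 (19% of all genes). The cause was not tested. The count of genes listed for a germline DMR with a peak at any start in both replicates depended on the setting. It became 1 for neonatal and 1 for adult within 500 bp, and 5 for adult within 2 kb. With a peak in either replicate it was 4 and 7 for neonatal and adult, and 1 and 0 with 50% of the peak inside. In lists of equal length it was 1 for neonatal. Leaving out 1 library gave 3 to 7 for the adult. Of 480 alternatives of 48 differences of single members, 30 changed sign.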
